A study of Mus musculus with 4 samples.

Results

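Myc, its partner Max and 38 further genes of ribosome production were examined in DS19 cells, a mouse erythroleukemia (MEL) line of transformed erythroid precursors. The genes were chosen by name for their known roles, as Myc, RNA polymerase I (Pol I) genes and nucleolar factors that process pre-ribosomal RNA, and all 40 symbols were found among the 17393 genes of the deposited table. RNA was sequenced from 2 wild-type libraries and 2 libraries of Wdr26-/- cells, numbered 1 and 2 within each genotype. Wdr26 encodes a subunit of the CTLH ubiquitin ligase. All groups share the cell line, and the culture description names 1.5% dimethyl sulfoxide, which drives MEL cells toward a red cell-like state, without saying whether the sequenced cells had received it. Whether the knockout cells were 1 clone, and what the library numbers mark, is stated in no source used here. No label says that same-genotype libraries are separate cultures, and p-values therefore measure only the spread between these libraries, which may be technical.

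Ribosomes are built in the nucleolus. Pol I transcribes the long ribosomal RNA precursor there, small nucleolar RNA-protein particles (snoRNPs) guide its chemical modification, and assembly factors cut, fold and export the small and large subunits. Myc, a transcription factor that binds DNA as a pair with Max, is known to promote many of these genes in growing cells, and Myc RNA is known to decline as MEL cells differentiate.

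Levels are given as FPKM (fragment counts divided by transcript length and by library size), so they can be compared between genes. Steps worth 1 fragment in the low values gave an estimated depth of between 18500000 and 20000000 fragments per library with whole transcript lengths, and of between 25500000 and 27000000 if 200 bases of each transcript were lost. The values lay on average 0.106 to 0.156 of a fragment from a whole number, and estimated depths differed between libraries by at most 8.11%. Wdr26 stood at 55.4 and 52.4 FPKM in wild-type libraries 1 and 2, and the knockout libraries had 9 and 7.84 FPKM (limma adjusted p = 0.0063). All 10 erythroid markers reached 1 FPKM. Those listed for lymphoid cells, fibroblasts and epithelium, as far as the table held them, stayed under 1 FPKM in every library, and of those of neutrophils and monocytes only Prtn3 reached it, at 2.88 and 3.59 FPKM across wild type, against 6.84 and 12.2 FPKM across knockout. Of 4 megakaryocyte markers, 3 reached it (Itga2b, Pf4 and Gp9).

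Levels of the 40 genes spanned more than 2 orders of magnitude. Npm1, a nucleolar histone and ribosome chaperone, was the most abundant, at a wild-type mean of 166 ± 7.37 FPKM (SD, n = 2). It was followed by the large-subunit factor Rrp1 at 62.9 ± 1.24, the H/ACA proteins Nhp2 at 56.7 ± 12.0 and Nop10 at 56.6 ± 11.2, and the Pol I factor Ubtf at 46.7 ± 7.45 FPKM. Nhp2 and Nop10 did not differ beyond their spread, and neither did Ubtf, Fbl (45.0 ± 11.9), Myc (43.8 ± 17.4) and Max (41.5 ± 6.40). The median gene stood at 14.2 FPKM and the lowest, Utp20, at 0.995 FPKM. All 40 genes passed the filter of at least 1 FPKM in at least 2 libraries, Utp20 through the libraries numbered 1 alone, and 33 had a mean of at least 5 FPKM.

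**Figure D1:**
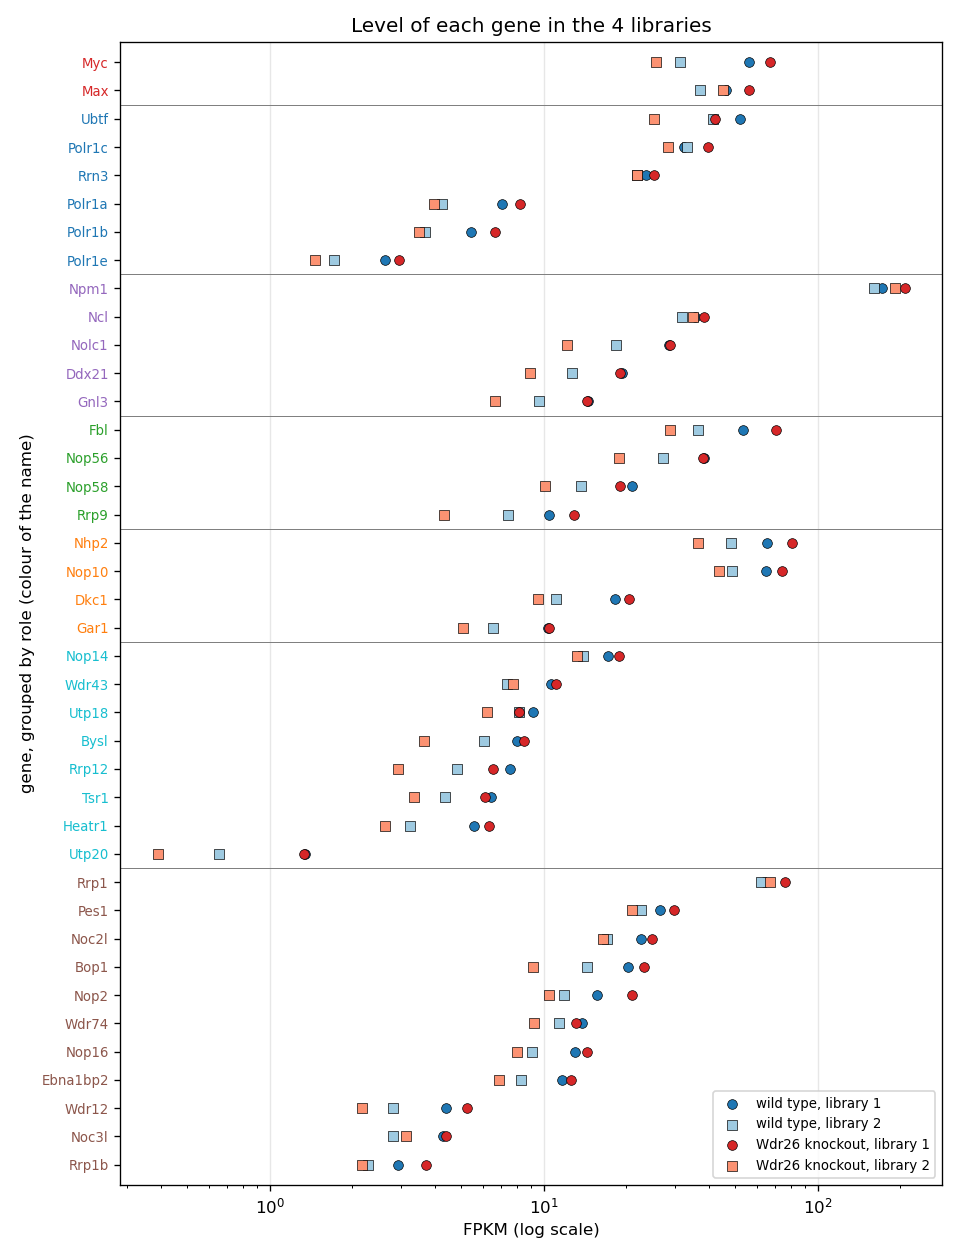
FPKM of each gene (log axis) in the 4 libraries, circles for library 1 and squares for library 2, blue for wild type and red for Wdr26 knockout, grouped by role. In 39 of 40 genes both squares lie to the left of the circle of the same genotype, the exception being Polr1c.

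Whether loss of Wdr26 changed the expression of these genes was tested with limma on log2(FPKM + 1), with p-values adjusted over all 10670 genes tested. None of the 40 genes passed at an adjusted p under 0.05, where 0.0937% of all genes tested did, and none had an unadjusted p under 0.05, where 11.4% of all genes did. Adjusted p ran from 0.542 (Npm1) to 0.994, and the ratio of knockout to wild-type means from 0.723 (Ubtf) to 1.22 (Max). The median log2 change was −0.020, beside 0.067 over all genes tested. In bulk RNA, fewer cells that express a gene and less of its RNA per cell cannot be told apart.

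Genotypes overlapped for 37 of the 40 genes. In Npm1 and Rrp1 both knockout values lay above both wild-type values, as in 29.9% of all genes tested. Utp18, a small-subunit processome protein, had both knockout values below both wild-type values, as had 10.8% of all genes. Those shares depend on scaling. With each library centred on its median, 2127 genes were higher in both knockout libraries and 2148 lower, against 3195 and 1149 without centring, and among the 40 genes 1 was higher in both and 2 were lower.

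The genotype comparison turned on which libraries entered it. Without knockout library 1, 13 of the 40 genes passed and all 13 were lower in knockout (2.88% of all genes were called lower there), with a median log2 change of −0.43 over the 40 genes. They were Bop1, Bysl, Ddx21, Fbl, Gnl3, Myc, Nhp2, Nolc1, Nop56, Nop58, Rrp12, Rrp9 and Ubtf, with limma adjusted p from 0.000708 to 0.0348. Without knockout library 2, Fbl and Myc passed and were higher in knockout (2.11% of all genes were called higher there), and the median was 0.31. Without wild-type library 1 or 2 none passed, with medians of 0.17 and −0.27. In each of these fits the lone library of its genotype is assumed to vary like the other pair. The lone library also has 1 number against both, so a difference between the numbers enters the genotype difference.

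The libraries numbered 2 held less of these transcripts than those numbered 1 in both genotypes. The summed level of the 40 genes was 1040 FPKM in wild-type library 1 and 820.1 in wild-type library 2, and 1175 and 762 FPKM in knockout libraries 1 and 2. In 39 of the 40 genes library 2 was lower than library 1 in both genotypes, a pattern that 46.5% of all genes tested show. For Utp20, counted among the 39, the pattern is tied to the filter, which it passed through the libraries numbered 1 alone. Polr1c, a subunit shared by Pol I and Pol III, was the exception, at 32.3 and 33.4 FPKM across wild type, against 39.7 and 28.3 FPKM across knockout. The number is not tied to a batch or day by any label, so this difference is described and not tested.

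The gap between the numbers was wider in knockout. In wild type the median gene stood in library 2 at 70.6% of its level in library 1 (range 48.5% to 103.1%), and in knockout at 53.2% (range 29.3% to 92.5%). Knockout library 2 was at no more than 50% of knockout library 1 in 19 of the 40 genes, beside 2.53% of all genes above 0 in every library. In wild type this held for 1 gene, Utp20, beside 0.93% of all genes. Utp20 passed the filter through the libraries numbered 1 alone, so its low shares in library 2 are tied to the filter. Without it the lowest shares were 56.1% in wild type (Myc) and 33.5% in knockout (Rrp9), and the counts at no more than 50% were 0 and 18 of 39 genes. For 35 of the 40 genes, Utp20 among them, library 2 was lower in both genotypes and the log2 gap was wider in knockout. The same held for 26.4% of all genes tested. The others of the 40 were Max, Ncl, Noc3l, Wdr43 and Polr1c. Across the 40 genes the log2 gaps of the 2 genotypes went together (Pearson r = 0.77, Spearman rho = 0.72, given as a description), as they did across the 10670 genes tested (0.61 and 0.62). The mean gap had little relation to the level of the gene (r = 0.22 over 40 genes).

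**Figure D2:**
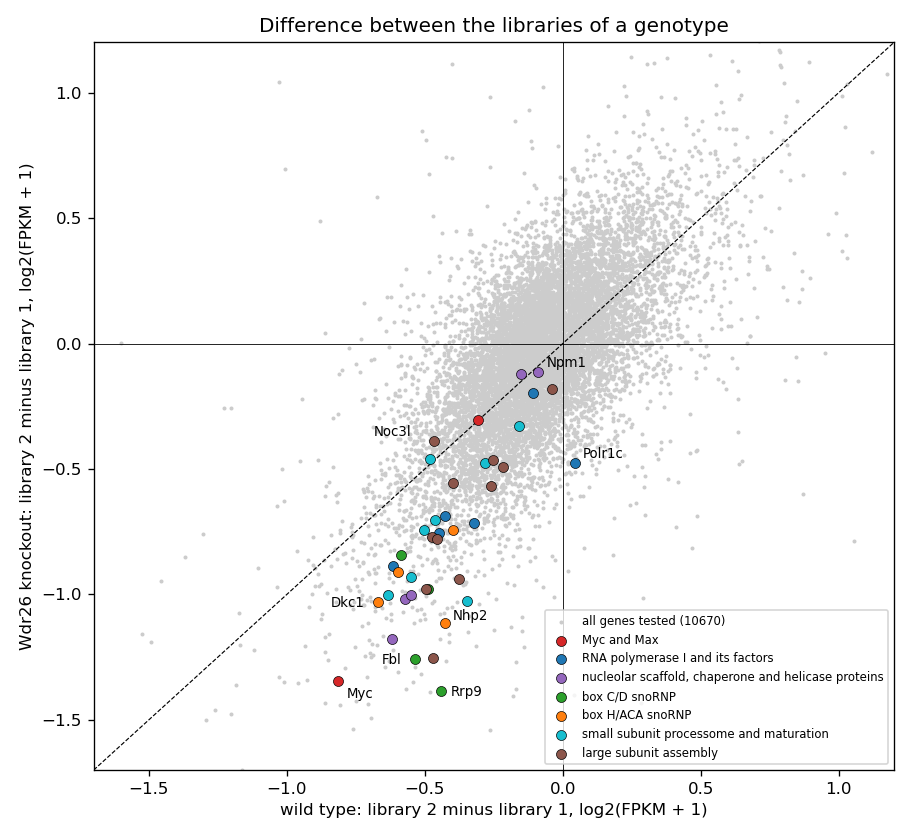
Library 2 minus library 1 on the log2(FPKM + 1) scale, wild type on the horizontal and Wdr26 knockout on the vertical axis, for all 10670 genes tested (grey, 47 of them outside the plotted range) and the 40 genes coloured by role. All of the 40 but Polr1c lie in the lower left part, and 35 of those 39 lie under the dashed line of equal differences.

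DNA replication genes also differed between the library numbers. Of 41 replication genes, 40 were lower in library 2 in both genotypes, with a median log2 gap of −0.58 in wild type and −0.78 in knockout. The 40 genes described here had medians of −0.45 and −0.76, and all genes tested −0.095 and −0.040. Pcna, which encodes the replication clamp, stood at 117 and 72.6 FPKM across wild type, against 105 and 49.6 FPKM across knockout. Of 10 erythroid markers, 5 were lower and 4 higher in library 2 in both genotypes. Between genotypes, 5 of the 10 were lower in both knockout libraries (10.8% of all genes tested were), among them Slc4a1, the red cell anion exchanger gene, at 436 and 285 FPKM across wild type, against 48.6 and 6.7 FPKM across knockout (limma adjusted p = 0.166). The part of proliferation or of differentiation state in the values of the 40 genes was not tested.

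The sign of the genotype difference depended on the number. Among the libraries numbered 1, knockout was above wild type in 30 of the 40 genes, with a median ratio of 1.10 (range 0.813 to 1.33). Of 10648 genes above 0 in every library, 6250 were above there, with a median ratio of 1.04. Among the libraries numbered 2, knockout was below wild type in 34 of the 40, with a median ratio of 0.826 (range 0.582 to 1.22). Of the 10648 genes, 3796 were below there, with a median ratio of 1.07. For 24 of the 40 genes knockout was above in number 1 and below in number 2, against 13.4% of all genes tested. The opposite pair of signs was shown by 0 of the 40. For Gar1 and Nolc1, counted among the 24, the libraries numbered 1 differed by a factor of only 1.002. Each of these differences rests on 1 library per genotype and has no replicate check.

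**Figure D3:**
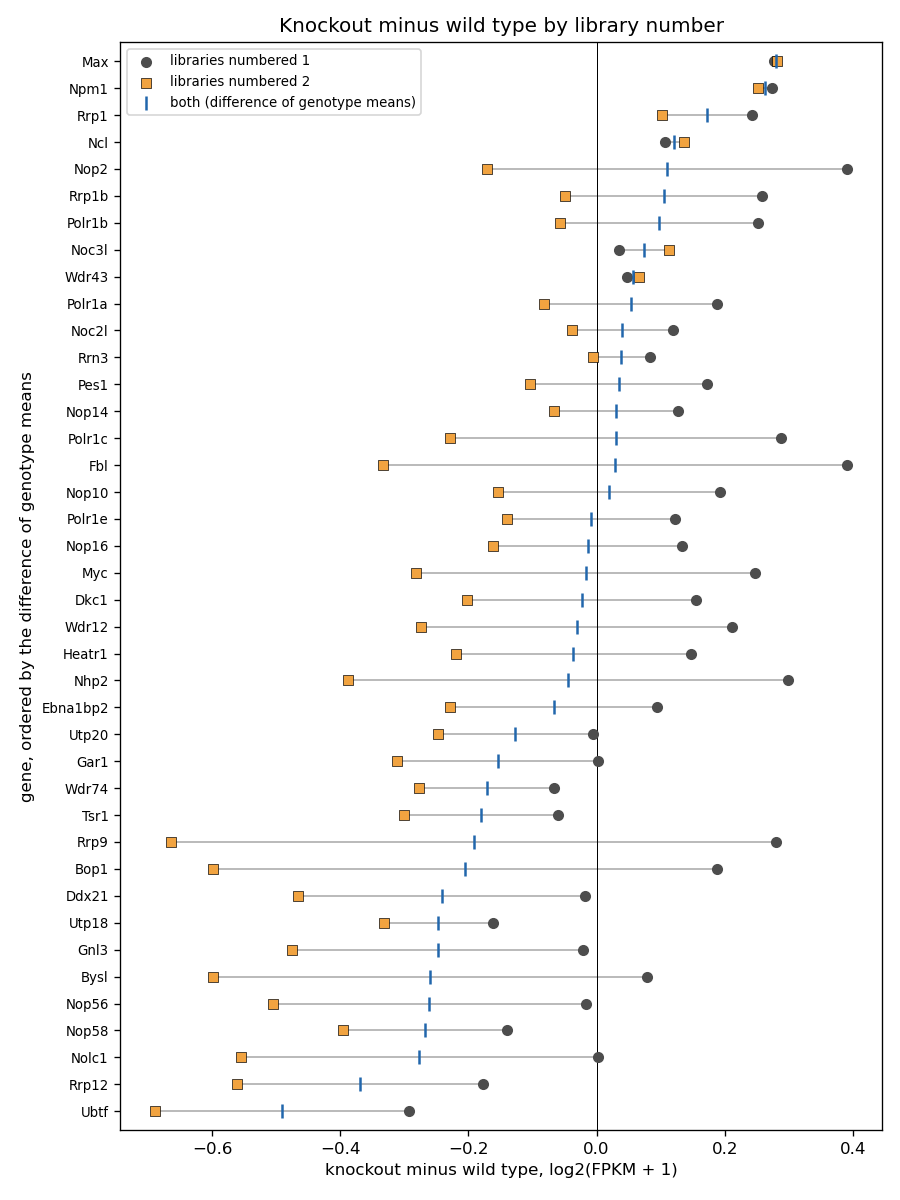
Knockout minus wild type on the log2(FPKM + 1) scale for each of the 40 genes, separately for the libraries numbered 1 (circles) and 2 (squares), with the difference of genotype means as a blue bar. For 24 genes the circle lies right of 0 and the square left of it; Max, Npm1, Rrp1, Ncl, Noc3l and Wdr43 lie right of 0 in both.

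For Myc the sign turned with the library number, and for Max it did not. Myc (gene ID 17869, chromosome 15, 61985341 to 61990361, mm10) stood at 56.1 and 31.5 FPKM in wild-type libraries 1 and 2 and at 66.8 and 25.7 FPKM in knockout libraries 1 and 2. Knockout therefore held both the highest and the lowest value, and library 2 was at 56.1% of library 1 in wild type and at 38.5% in knockout. The genotype means were 43.8 ± 17.4 and 46.2 ± 29.1 FPKM (SD, n = 2; log2 change −0.017, SE 0.47, limma adjusted p = 0.994). Without knockout library 1 the log2 change of Myc was −0.69, and without knockout library 2 it was 0.66. Max, at 46.1 and 37.0 FPKM across wild type, against 56.0 and 45.2 FPKM across knockout, kept nearly the same ratio of knockout to wild type in both numbers (1.22 in each). Its genotypes overlapped only because knockout library 2 lay under wild-type library 1 (log2 change 0.28, SE 0.17, limma adjusted p = 0.637).

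Of the Pol I genes, the 2 largest subunits and an associated subunit showed the common pattern at low levels. Polr1a, the catalytic subunit, stood at 7.04 and 4.25 FPKM across wild type, against 8.16 and 3.96 FPKM across knockout. Polr1b, the second-largest subunit, stood at 5.4 and 3.69 FPKM against 6.62 and 3.51 FPKM. Polr1e, an associated subunit, stood at 2.64 and 1.71 FPKM against 2.96 and 1.46 FPKM. In each of these, both libraries numbered 1 were above both libraries numbered 2. Rrn3, the initiation factor that brings Pol I to its promoter, varied little, at 23.7 and 21.9 FPKM across wild type, against 25.1 and 21.8 FPKM across knockout.

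Ubtf (gene ID 21429, chromosome 11, 102304560 to 102323649), which encodes the architectural factor that marks active ribosomal DNA, had the lowest ratio of knockout to wild type of the 40 genes. It stood at 52.0 and 41.4 FPKM across wild type, against 42.2 and 25.3 FPKM across knockout. Knockout was lower within each number, at 0.813 and 0.611 of wild type, but knockout library 1 lay just above wild-type library 2, so the genotypes overlapped. The log2 change was −0.49 (SE 0.26, limma adjusted p = 0.558). Without knockout library 1 it was −0.85, but there knockout library 2 stood alone against both wild-type libraries, so number and genotype are mixed. With median-centred values both knockout values of Ubtf lay below both wild-type values. Transcripts assembled from the reads are part of its value.

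Among the nucleolar scaffold, chaperone and helicase genes, Npm1 and Ncl (nucleolin, an RNA-binding nucleolar protein) varied little with the number. Npm1 (gene ID 18148, chromosome 11, 33152498 to 33164142) stood at 171 and 161 FPKM across wild type, against 207 and 192 FPKM across knockout, a ratio of means of 1.202 (log2 change 0.26, SE 0.13, limma adjusted p = 0.542). Ncl stood at 35.5 and 31.9 FPKM against 38.4 and 35.1 FPKM. The other 3 genes showed a wide gap. Nolc1, a chaperone that shuttles snoRNPs, stood at 28.7 and 18.3 FPKM across wild type, against 28.8 and 12.2 FPKM across knockout. Ddx21, an RNA helicase of Pol I transcription and snoRNA handling, stood at 19.3 and 12.6 FPKM against 19.0 and 8.88 FPKM. Gnl3 (nucleostemin), a nucleolar GTPase, stood at 14.5 and 9.62 FPKM against 14.3 and 6.64 FPKM. In these 3 genes the libraries numbered 1 were nearly equal between genotypes, and knockout library 2 was the lowest of the 4.

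Box C/D snoRNPs add methyl groups to ribosomal RNA. Their methyltransferase gene Fbl (fibrillarin; gene ID 14113, chromosome 7, 28168893 to 28179269) stood at 53.5 and 36.6 FPKM across wild type, against 70.4 and 28.8 FPKM across knockout. Like Myc, Fbl had both its highest and its lowest value in knockout. Its log2 change was 0.028 (SE 0.41, limma adjusted p = 0.992), −0.60 without knockout library 1 and 0.66 without knockout library 2. The paralogous core proteins Nop56 and Nop58 both had their lowest value in knockout library 2. Nop56 stood at 38.5 and 27.2 FPKM across wild type, against 38.1 and 18.9 FPKM across knockout, and Nop58 at 21 and 13.6 FPKM against 19.0 and 10.1 FPKM. Rrp9, a protein of the snoRNP that acts in early pre-rRNA cleavage, stood at 10.4 and 7.41 FPKM against 12.9 and 4.31 FPKM. Knockout library 2 of Rrp9 was at 33.5% of knockout library 1, and only Utp20 had a lower share (29.3%).

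Box H/ACA snoRNPs convert uridines of ribosomal RNA to pseudouridine. All 4 core genes were higher in knockout library 1 and lower in knockout library 2 than in wild type of the same number. For Gar1 the libraries numbered 1 differed by a factor of only 1.002, and with median-centred values 3 of the 4 genes kept the pattern. Dkc1 (dyskerin), the pseudouridine synthase, stood at 18.2 and 11.1 FPKM across wild type, against 20.4 and 9.49 FPKM across knockout. Nhp2 stood at 65.1 and 48.2 FPKM against 80.4 and 36.6 FPKM. Nop10, the smallest of the 4 proteins, stood at 64.5 and 48.7 FPKM against 73.8 and 43.6 FPKM, and Gar1 at 10.4 and 6.53 FPKM against 10.4 and 5.07 FPKM. The 4 genes summed to 158 and 114 FPKM in wild-type libraries 1 and 2 and to 185 and 94.8 FPKM in knockout libraries 1 and 2. None of the 4 passed the genotype test (lowest limma adjusted p = 0.923).

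All 8 genes of the small-subunit processome and later small-subunit steps were lower in library 2 in both genotypes. Utp18 (gene ID 217109, chromosome 11, 93859243 to 93885766) was the only one whose genotypes did not overlap, at 9.16 and 8.09 FPKM across wild type, against 8.08 and 6.22 FPKM across knockout (log2 change −0.25, SE 0.17, limma adjusted p = 0.676). Wild-type library 2 and knockout library 1 were thus nearly equal. Rrp12, an export factor, stood at 7.5 and 4.81 FPKM across wild type, against 6.52 and 2.94 FPKM across knockout. Bysl (bystin), which acts late on the small subunit, stood at 7.96 and 6.04 FPKM against 8.46 and 3.65 FPKM. Both had knockout library 2 well under the other 3 libraries.

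Nop14, a processome core protein, stood at 17.2 and 13.9 FPKM across wild type, against 18.8 and 13.3 FPKM across knockout. Wdr43 had nearly equal genotypes in both numbers, at 10.7 and 7.35 FPKM against 11.0 and 7.74 FPKM. Heatr1, which links the processome to Pol I transcription, stood at 5.58 and 3.24 FPKM against 6.29 and 2.64 FPKM, and the GTPase-like factor gene Tsr1 at 6.4 and 4.37 FPKM against 6.1 and 3.36 FPKM. Utp20 was close to the limit of the filter, at 1.34 and 0.65 FPKM against 1.33 and 0.39 FPKM, and its log2 values are compressed by the pseudocount of 1.

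The large-subunit group held 11 genes. Of these, 10 were higher in knockout than in wild type among the libraries numbered 1 and 9 were lower among those numbered 2. Of 10648 genes above 0 in every library, 6250 were higher in number 1 and 3796 were lower in number 2. Pes1, Bop1 and Wdr12 encode the PeBoW complex, which processes the large-subunit precursor, and their 3 transcripts differed in spread. Pes1 stood at 26.4 and 22.6 FPKM across wild type, against 29.9 and 20.96 FPKM across knockout. Bop1 stood at 20.2 and 14.3 FPKM against 23.1 and 9.11 FPKM, and Wdr12 at 4.38 and 2.82 FPKM against 5.23 and 2.16 FPKM. Knockout library 2 was thus at 70.1% of knockout library 1 for Pes1, at 39.4% for Bop1 and at 41.3% for Wdr12.

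The paralogs Rrp1 and Rrp1b stood far apart in level. Rrp1 (gene ID 18114, chromosome 10, 78400362 to 78413043) stood at 63.8 and 62.0 FPKM across wild type, against 75.6 and 66.6 FPKM across knockout (log2 change 0.17, SE 0.13, limma adjusted p = 0.726), with no overlap between genotypes. With median-centred values its genotypes overlapped. Rrp1b stood at 2.93 and 2.28 FPKM against 3.7 and 2.17 FPKM, and overlapped. Nop2, a ribosomal RNA cytosine methyltransferase, had the highest ratio of knockout to wild type among the libraries numbered 1 (1.33), at 15.7 and 11.9 FPKM across wild type, against 20.9 and 10.4 FPKM across knockout.

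The remaining large-subunit genes were Noc2l, Wdr74, Nop16, Ebna1bp2 and Noc3l, with wild-type means between 3.55 and 19.8 FPKM. Noc2l and Noc3l act with other factors in moving pre-ribosomes through the nucleolus. Noc2l stood at 22.7 and 16.98 FPKM across wild type, against 24.7 and 16.5 FPKM across knockout. Noc3l was among the few genes whose gap was narrower in knockout, at 4.28 and 2.82 FPKM against 4.41 and 3.13 FPKM. Nop16 and Ebna1bp2 had ratios of genotype means of 1.01 and 0.975, and Wdr74 one of 0.888.

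Other genes of ribosome production, from lists kept apart from the 40, were lower in the libraries numbered 2 by smaller amounts. Of 40 further processome genes tested, 37 were lower in library 2 in both genotypes, with median gaps of −0.31 in wild type and −0.47 in knockout. Of 44 further large-subunit genes, 41 were lower (medians −0.29 and −0.42), and of 13 snoRNP assembly genes, 12 were (medians −0.20 and −0.25). Mdn1, counted among the 41, reached 1 FPKM only in the libraries numbered 1, so its place there is tied to the filter. The snoRNP assembly gene Ruvbl2, a helicase-like ATPase, stood at 44.6 and 40.4 FPKM across wild type, against 47.6 and 33.7 FPKM across knockout. Gltscr2 (also called Nop53), a large-subunit factor, ran the other way, at 137 and 192 FPKM against 177 and 226 FPKM. Ppan, of the same list, stood at 116 and 93.5 FPKM across wild type, against 104 and 60.9 FPKM across knockout.

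Other Pol I genes, several of which encode subunits shared with other polymerases, were lower in library 2 in both genotypes for 10 of 16 genes. Polr1d, the most abundant, stood at 143 and 135 FPKM across wild type, against 156 and 134 FPKM across knockout. Polr2k, a small shared subunit, had the lowest unadjusted p of that list (0.0195, limma adjusted p = 0.337), at 10.1 and 9.59 FPKM across wild type, against 7.3 and 4.5 FPKM across knockout. No gene of these 4 lists passed the genotype test with limma. Of their genes 2 (Polr2k and Znhit3) had an unadjusted p under 0.05, where 11.4% of all genes tested did. Counts with both knockout libraries above, or both below, both wild-type libraries were 3 and 3 for Pol I. They were 4 and 1 for the processome, 2 and 1 for the large subunit and 0 and 2 for snoRNP assembly. Over all genes tested, 29.9% lay above and 10.8% below. With median-centred values the counts were 2 and 6 for Pol I, 4 and 8 for the processome and 1 and 9 for the large subunit. For snoRNP assembly they were then 0 and 4, and over all 10670 genes tested 2127 and 2148.

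Genes known as Myc targets in nucleotide, polyamine and translation metabolism had median gaps close to those of the 40 genes. Of 29 tested, 27 were lower in library 2 in both genotypes (medians −0.44 in wild type and −0.72 in knockout), and 12 had knockout above wild type in number 1 and below it in number 2. Cdk4, a cell-cycle kinase gene, stood at 159 and 111 FPKM across wild type, against 190 and 105 FPKM across knockout. Ldha, the lactate dehydrogenase gene, did not follow, at 815 and 980 FPKM against 742 and 725 FPKM.

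Some proteins share or oppose the Max partnership of Myc. Of 9 such network genes tested, 4 were lower in library 2 in both genotypes. Mxd4, a Max-binding repressor, was the most abundant, at 104 and 93.8 FPKM across wild type, against 124 and 125 FPKM across knockout (log2 change 0.32, SE 0.13, unadjusted p = 0.0477, limma adjusted p = 0.432). Mxi1, another such repressor, stood at 73.7 and 70.4 FPKM against 55.5 and 64.4 FPKM (limma adjusted p = 0.558). Both had genotypes that did not overlap, in opposite directions. Of the 9 genes, 2 (Mxd4 and Zbtb17) were higher in both knockout libraries and 3 (Mxd1, Mxi1 and Mnt) were lower. Over all genes tested, 29.9% were higher in both and 10.8% lower. With median-centred values 2 of the 9 were higher in both and 5 lower.

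Regulators of Myc protein stability were lower in library 2 in both genotypes for 10 of 17 genes, with 5 higher and 1 lower in both knockout libraries. The 5 of 17 are a share near the 29.9% of all genes tested that were higher in both, and 10.8% of all genes were lower in both. With median-centred values 3 of the 17 were higher in both and 6 lower. Over all 10670 genes tested, 2127 were higher and 2148 lower with that scaling. Gsk3a, of the kinase family that marks Myc for degradation, stood at 73.5 and 76.7 FPKM across wild type, against 87.1 and 89.8 FPKM across knockout (limma adjusted p = 0.571). Axin1, a scaffold that binds these kinases, stood at 20.0 and 19.7 FPKM against 24.4 and 25.0 FPKM (limma adjusted p = 0.44). The one lower in both without centring was Stub1, a ubiquitin ligase gene. It stood at 69.6 and 58.1 FPKM against 58.0 and 44.2 FPKM (limma adjusted p = 0.592). Wild-type library 2 and knockout library 1 of Stub1 were nearly equal. No gene of the 3 Myc lists passed the genotype test with limma. Mxd4 alone had an unadjusted p under 0.05, where 11.4% of all genes tested did. Protein levels of Myc were not measured.

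**Figure D4:**
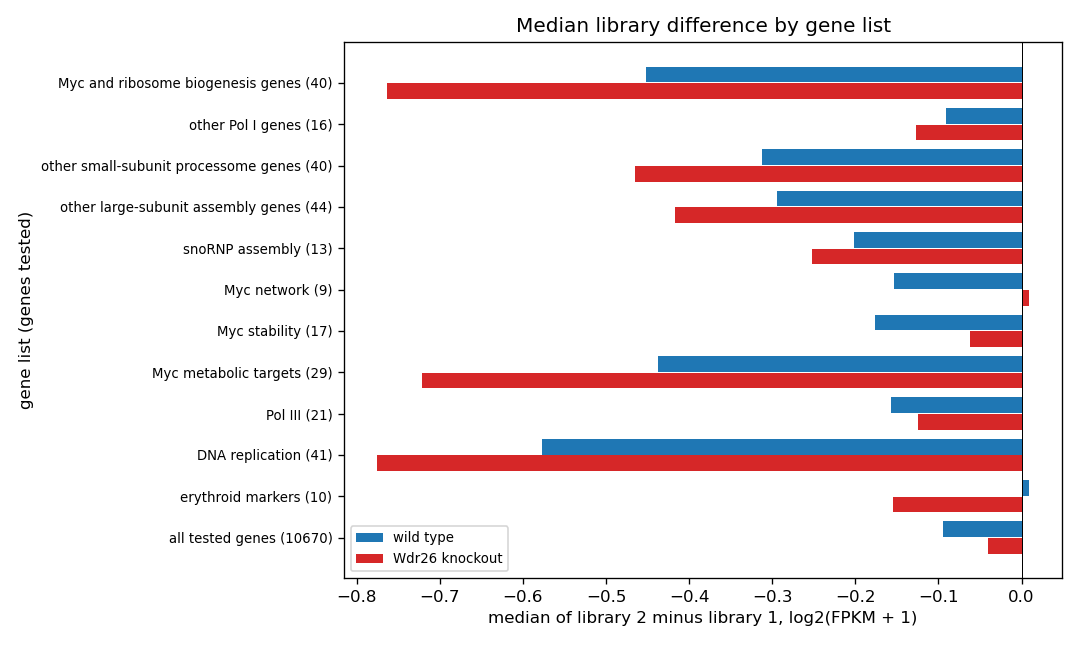
Median of library 2 minus library 1 on the log2(FPKM + 1) scale in wild type (blue bars) and Wdr26 knockout (red bars) for the 40 genes, the further lists and all genes tested, with the number of genes tested in brackets. The 40 genes, the Myc metabolic targets and the DNA replication genes have the longest bars in both genotypes, and all genes tested stand at −0.095 and −0.040.

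Promoters were searched because Myc and Max bind the E-box CACGTG, which reads the same on both strands. RefSeq promoter windows (GRCm38.p6, the assembly of mm10), from 250 bases before to 50 bases after each start site, matched 35 of the 40 genes. No window was available here for Bop1, Fbl, Myc, Npm1 and Rrp12, so these were not searched. The E-box was found in at least 1 window of 8 genes (22.9%), against 12.4% of the tested genes with a window and 8.09% of all genes with one. CACGCG on either strand, a variant E-box, was found in 12 of the 35 genes (34.3%), against 21.1% of tested genes. TATAAA on either strand was found in 2 (5.71%), against 7.91%. A match shows only that these letters are present, and binding was not measured.

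The 8 genes were Max, Nop2, Pes1, Rrn3, Tsr1, Utp18, Utp20 and Wdr43. In Max the E-box spans the annotated start site, and in Pes1, Tsr1, Utp20 and Wdr43 it lies after it. In Rrn3, Nop2 and Utp18 an E-box lies wholly upstream, and these 3 are shown to place it relative to the start site, with the E-box in capitals and up to 50 bases on each side, 5′ to 3′ on the strand of the gene. The Rrn3 stretch is chr16:13780601-13780698 (plus strand), with the E-box 48 bases before the start. A further Rrn3 E-box lies 215 bases before it. The Nop2 stretch is chr6:125131773-125131878 (plus strand), with the E-box 60 bases before the start, and the Utp18 stretch is chr11:93885767-93885836 (minus strand), with the E-box 20 bases before it.
Rrn3: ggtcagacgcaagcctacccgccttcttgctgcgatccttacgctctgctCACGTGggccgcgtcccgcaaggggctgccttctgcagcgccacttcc
Nop2: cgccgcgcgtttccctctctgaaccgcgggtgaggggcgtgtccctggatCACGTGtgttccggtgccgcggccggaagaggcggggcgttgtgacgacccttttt
Utp18: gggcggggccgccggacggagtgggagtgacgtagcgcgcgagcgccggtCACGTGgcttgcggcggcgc

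The 8 genes with the E-box stood in library 2 at a median of 78% of library 1 in wild type and 70.1% in knockout. The 27 genes with a window and no E-box stood at 70.6% and 53%. The 5 genes without a window, which could not be searched, stood at 68.5% and 41%. Utp20, whose low shares are tied to the filter, is among the 8. The 3 genes shown above differed among themselves, since Rrn3 kept 92.5% and 86.8% of its library 1 level, Utp18 88.3% and 76.98%, and Nop2 75.7% and 49.9%.

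Several of the 40 genes also carry snoRNA genes inside their own transcription units, as is known for genes of the translation machinery. In GENCODE M21, 7 of the 40 (Ncl, Nop56, Nop58, Dkc1, Wdr43, Tsr1 and Gnl3) hold 21 annotated snoRNA genes on their strand, whereas 1.82% of 9601 tested protein-coding genes hold one. Nop56 holds 5 of them and Nop58 holds 4. The deposited FPKM are given per gene and do not measure the snoRNAs apart from their hosts.

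Some values are uncertain because neighbouring genes overlap, and no source used here states whether strand was kept in counting. In GENCODE M21, 14 of the 40 genes overlap a protein-coding gene on the opposite strand, among them Dkc1 (with Mpp1), Nhp2 (with Rmnd5b), Bysl (with Ccnd3) and Nop56 (with Idh3b). Transcripts assembled from the reads contribute to the values of 9 of the 40 genes, including Max, Npm1 and Fbl. Npm1 is known to have near-identical pseudogene copies, which could share reads with it.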

How the data were processed

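RNA of 2 wild-type and 2 Wdr26 knockout samples was sequenced after ribosomal RNA depletion, per the labels' protocols, and samples were grouped by the genotype in the labels. The authors deposited 1 value per gene and library. Its unit was identified as FPKM from the deposited values, which sum to between 1.07e+09 and 1.08e+09 per library when multiplied by transcript length. Per the submitters' processing notes, TopHat2 and the mm10 build were used, and no source used here names the step that gave FPKM.

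Values were converted to log2(FPKM + 1). The 10670 genes that reached 1 FPKM in 2 or more libraries were tested. The genotype comparison used limma 3.58.1 under R 4.3.3 (lmFit, eBayes with a trend, no covariate), with Benjamini-Hochberg adjustment over all genes tested and a threshold of 0.05. The script was tested on simulated data. The smallest p of an exact permutation test with 2 libraries a genotype is 0.333, and no such test was made. The deposited FPKM were used for ratios and shares. Coordinates and promoters are RefSeq's for GRCm38.p6, and overlaps are GENCODE's.

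The 40 genes and the further lists were chosen with earlier results of these data known. The rule for printed values covered Wdr26, genes past the threshold, Myc and Max, the 5 most abundant genes, those with non-overlapping genotypes, those with the largest library gap and the paralog pairs. In each further list it covered called genes, or the 2 most abundant genes and the one with the smallest p. Not all of the genes it covered in the further lists are printed. Values of other genes were printed after they had been seen. Alternatives were other scalings, filters and pseudocounts, limma without the trend, the library number as a block, and leaving out each library.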

Additional observations from a re-analysis of the deposited data

How the results depend on the processing

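No gene of the 40 passed the genotype test with median-centred values, quantile normalization, globin genes left out, all genes kept whatever their level, only genes averaging 5 FPKM or more (33 of the 40), a pseudocount of 0.1 or limma without the trend. Leaving out 1 library gave between 0 and 13 genes called lower and between 0 and 2 called higher, between 2 and 30 genes higher in both (or the only) knockout libraries and between 1 and 34 lower. In these fits the log2 change of Myc ran from −0.69 to 0.66 and that of Fbl from −0.60 to 0.66. The sign of both genes thus depended on the library left out. Over the settings named first and the library exclusions, the median log2 change ran from −0.43 to 0.31.

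With the library number as a replicate block, 2 genes passed, both lower (Ubtf, limma adjusted p = 0.000555, and Rrp12, 0.049), where 1863 of all genes passed, 475 of them lower (4.45% of those tested). With the block and median-centred values 3 passed, all lower (the third being Nop58), where 618 of all genes were called lower (5.79%). Both counts for the 40 genes are near these shares. Nothing in the labels says that the numbers pair the samples, and deviations of same-numbered libraries from their genotype means correlated at 0.606 over 10670 genes. Higher values in both knockout libraries were found for 1 gene with median-centred values, and lower values in both for 2 genes with median-centred values, with quantile normalization or with globin genes left out.

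The number of the 40 genes lower in library 2 in both genotypes was between 32 and 39 under every scaling, filter and pseudocount tried. The 32 were of 33 tested, at a mean of at least 5 FPKM. With median-centred values it was 36, where 3606 of all 10670 genes tested showed the pattern. With that scaling it held for 32 further processome, 33 further large-subunit, 9 snoRNP assembly and 7 other Pol I genes. It also held for 25 Myc metabolic targets and 38 DNA replication genes. The median gap of the 40 genes ran from −0.34 to −0.50 in wild type and from −0.71 to −0.90 in knockout. The median SD within genotypes was 0.45 on the log2 scale, and 2 libraries per genotype limit the precision of every comparison between genotypes.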

Other observations

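Pol III, which makes transfer RNAs and the small ribosomal RNA of the large subunit, had a narrower median gap between libraries than the 40 genes. Of 21 Pol III genes tested, 13 were lower in library 2 in both genotypes, with median log2 gaps of −0.16 in wild type and −0.12 in knockout. Polr3c, a Pol III subunit gene, had the smallest p of that list, at 68.9 and 62.5 FPKM across wild type, against 88.9 and 90.5 FPKM across knockout (log2 change 0.44, SE 0.13, unadjusted p = 0.0133, limma adjusted p = 0.302). The 2 most abundant genes of the list were Polr3gl and Maf1, the repressor of Pol III. Polr3gl stood at 76.3 and 92.6 FPKM across wild type, against 71.1 and 98.9 FPKM across knockout. Maf1 stood at 62.4 and 73.1 FPKM against 71.3 and 78.6 FPKM. In all, 3 of the 21 genes were higher in both knockout libraries and 5 were lower. Over all genes tested, 29.9% were higher and 10.8% lower. With median-centred values 3 of the 21 were higher and 8 lower.

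No replication gene passed the genotype test with limma, and 2 of 41 had an unadjusted p under 0.05, where 11.4% of all genes tested did. Pola1 encodes the catalytic subunit of DNA polymerase alpha. It stood at 6.25 and 3.45 FPKM across wild type, against 2.69 and 1.23 FPKM across knockout (unadjusted p = 0.0226, limma adjusted p = 0.352). Pola1 was the only replication gene of 41 that was lower in both knockout libraries, where 10.8% of all genes tested were. Rfc2, a subunit of the clamp loader, stood at 51.2 and 47.8 FPKM against 65.5 and 60.5 FPKM (unadjusted p = 0.0377, limma adjusted p = 0.404). Rfc2 was the only replication gene higher in both, where 29.9% of all genes tested were. With median-centred values 1 replication gene was higher in both and 2 were lower.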
